A study of Homo sapiens with 6 samples.

Results

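The genes for the secreted and cell-surface cues that steer growing axons, and for their receptors, were examined in A375 cells, a long-established line from a human melanoma that carries an activating BRAF mutation. Members were all genes of the count table whose symbol places them in 1 of 9 gene families, the semaphorins (SEMA), plexins (PLXN), neuropilins (NRP), Eph receptors (EPH), ephrins (EFN), UNC5 receptors, netrins (NTN), SLIT ligands and ROBO receptors. The rule took 70 of 16934 genes and used no measured value. The 6 RNA libraries came from cells treated with Alt-R CRISPR-Cas9 reagents and either a non-targeting control sgRNA (3 libraries) or an sgRNA against POLK (3 libraries), the gene for the error-prone DNA polymerase kappa. The libraries held between 42852645 and 56891905 counts, and 0.213% to 0.221% of them fell on the members. The labels do not state whether the 3 libraries of a group were grown or edited apart, and their count columns share a name stem. The spread that the p-values rest on may therefore be technical, and what separates these 2 cell populations for other reasons cannot be told apart from what editing POLK did.

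POLK itself, the targeted gene, stood at 23.4, 24.03 and 22.4 CPM (counts per 1000000, on library sizes scaled by the TMM method) in control libraries 1, 2 and 3 and at 19.2, 17.2 and 18.1 CPM in POLK sgRNA libraries 1, 2 and 3. The groups did not overlap, and the level with the POLK sgRNA was 78.0% of control, with a log2 fold change of −0.36 (SE 0.05) and an adjusted p of 7.9e-08 (quasi-likelihood F test of edgeR, adjusted by Benjamini-Hochberg over all genes tested, as for every adjusted p below). Of all genes tested 31.6% fell, and in 67.7% the groups did not overlap, so the fall of POLK is only a weak check of the labels. The share of POLK copies that were edited is not known from these mRNA values. Values for the libraries are given below in the same order, control 1, 2 and 3 and then POLK sgRNA 1, 2 and 3.

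Axon guidance cues work by contact or over a distance, and most act by changing the actin cytoskeleton of the responding cell. Secreted class 3 semaphorins bind a neuropilin, which holds the ligand, and a class A plexin, which carries the signal, while most membrane-bound semaphorins bind plexins directly. Ephrins are tethered to the membrane and signal to Eph receptor tyrosine kinases on the neighbouring cell. Netrins bind DCC, neogenin and UNC5 receptors, and SLIT proteins bind ROBO receptors. The melanocytes from which melanoma arises descend from the neural crest, a migratory embryonic population that many of these cues guide.

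Most of the guidance genes that could be tested differed between the groups, and more of them were lower than higher with the POLK sgRNA. Of the 70 members, 63 had enough counts for a test, and the other 7 are described at the end. Among the 63, 20 rose and 32 fell, where over all 13930 genes tested 32.8% rose and 31.6% fell, together 64.3%. The members that rose were 31.7% of those tested, near the share of all genes, and the members that fell were 50.8%. The median log2 fold change of the members was −0.22, beside 0.01 over all genes, and the median size of the change regardless of direction was 0.50 beside 0.18. The groups did not overlap in 54 of the 63 members, beside 67.7% of all genes. A change of at least 2-fold was found in 13 members, 4 higher and 9 lower, beside 6.84% of all genes. In a test for a change beyond 25% upward or the same fold downward (edgeR's glmTreat), 11 members were higher and 20 lower, beside 11.9% and 8.79% of all genes. Since 64.3% of all genes passed the test, each member's call is given below with its size. Library values are given for the called members named in full and for some others. In bulk RNA, fewer cells that express a gene and less RNA per cell cannot be told apart.

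**Figure D1:**
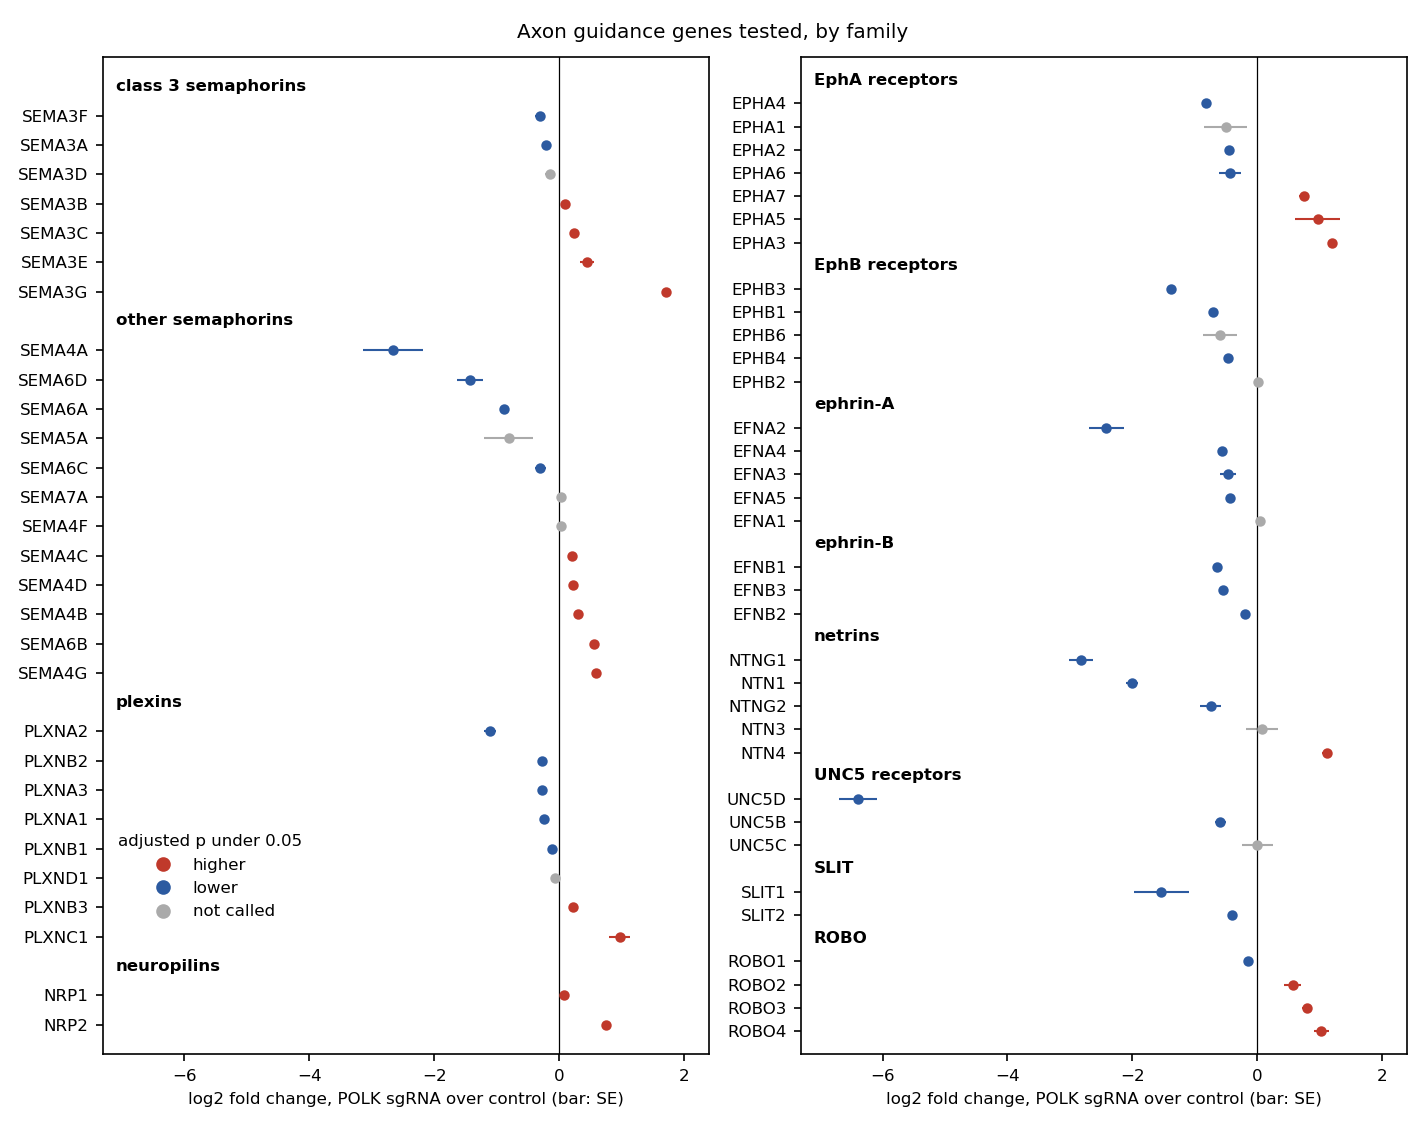
Log2 fold change (POLK sgRNA over control, x axis) of each of the 63 tested genes, grouped by family, with its SE as a bar; red marks genes that rose, blue genes that fell and grey genes that did not pass at an adjusted p under 0.05. SEMA3G, EPHA3, NTN4 and ROBO4 lie furthest to the right, UNC5D lies furthest to the left at −6.39, and no tested EphB receptor, ephrin, UNC5 receptor or SLIT gene is marked as risen.

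Levels were compared between genes per length, as CPM divided by the kilobases of annotated exon. In control cells the highest level belonged to EPHA2, an Eph receptor often abundant in melanoma and carcinoma, at 63.0 ± 0.769 (SD, n = 3). SEMA3B, PLXNB2, SEMA6B and EPHB4 followed, at 36.2 ± 0.870, 28.4 ± 0.110, 22.3 ± 0.336 and 18.4 ± 0.360 on the same scale, each separated from the next by more than the SDs. With the POLK sgRNA, EPHA2 still had the highest level per length, 46.2 ± 0.717, followed by SEMA3B at 38.8 ± 0.269, SEMA6B at 33.1 ± 2.03 and PLXNB2 at 23.4 ± 0.788. EPHA3 came next, close to PLXNB2, at 22.2 ± 0.383 on the same scale. EPHA3 moved from the rank of 10 among the 70 genes to the rank of 5, NRP2 from 13 to 7 and SEMA3G from 31 to 17, while EPHB3 moved from 9 to 22 and NTN1 from 35 to 46. At the other end, 10 tested members had a mean under 1 CPM.

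**Figure D2:**
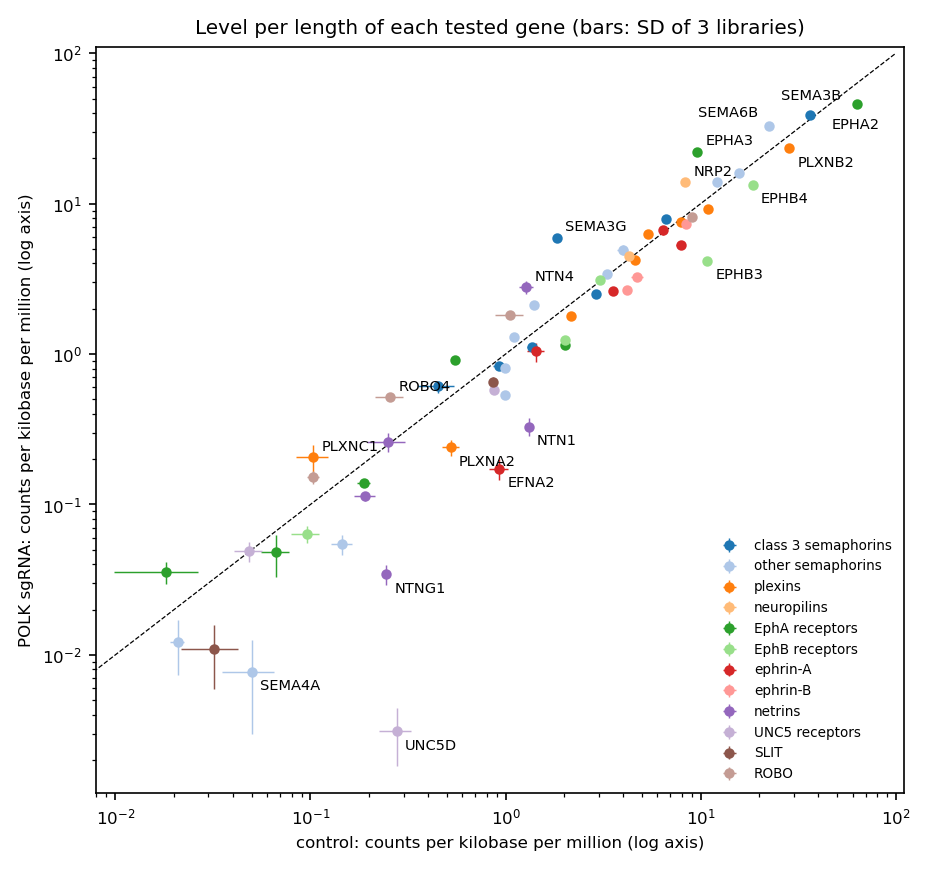
Mean CPM per kilobase of exon of each tested gene in control cells (x axis) and with the POLK sgRNA (y axis), both on log axes, with SDs of 3 libraries as bars, colours for the families and a dashed line where both are equal. Abundant genes such as EPHA2, SEMA3B and PLXNB2 lie near the line, and UNC5D, NTNG1, EFNA2 and SEMA4A lie far below it.

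Among the secreted class 3 semaphorins, SEMA3G was the member that changed most. Of the 7 genes, 4 rose (SEMA3B, SEMA3C, SEMA3E and SEMA3G), 2 fell (SEMA3A and SEMA3F), and SEMA3D did not pass. Over all genes tested 32.8% rose and 31.6% fell, and the count of any small family is to be read beside these shares. SEMA3G (ENSG00000010319, chromosome 3, 52433053 to 52445085 on the minus strand, GRCh38) encodes a ligand that binds neuropilin 2. Its level was 9.13, 8.81 and 9.52 CPM in the control libraries and 28.7, 30.4 and 30.4 CPM in the POLK sgRNA libraries. Every POLK sgRNA library was higher than every control library, with a fold of 3.26 and a log2 fold change of 1.70 (SE 0.05, adjusted p = 1.3e-24).

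Neuropilin 2 rose with it. NRP2 (ENSG00000118257, chromosome 2, 205681990 to 205798133 on the plus strand), a co-receptor for SEMA3F, SEMA3G and other class 3 semaphorins and for VEGF-C, stood at 116, 116 and 116 CPM in control and at 198, 196 and 188 CPM in POLK sgRNA libraries. The 3 control values lay within 1 CPM of each other, and the lowest POLK sgRNA value was well above them, with a log2 fold change of 0.74 (SE 0.03, adjusted p = 5.5e-23). NRP1, the co-receptor best known for SEMA3A and VEGF-A, differed far less, at 49.9, 49.9 and 48.5 CPM against 53.6, 50.2 and 52.3 CPM. The NRP1 groups were separated by only the gap between 49.9 and 50.2 CPM, and its log2 fold change of 0.08 (SE 0.03) passed narrowly, with an adjusted p of 0.0497. That call was lost without control library 1 (adjusted p = 0.08), 2 (0.088) or 3 (0.19), without POLK sgRNA library 1 (0.19) or 3 (0.09), and under 4 other settings given in the closing section. Per length, NRP2 made up 66.0% of the 2 neuropilins in control cells and 75.6% with the POLK sgRNA.

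The promoters of SEMA3G and NRP2 are shown because this ligand and its co-receptor rose together. Each is the 300-base window from 250 bases before to 50 bases after a RefSeq start (GRCh38.p14), printed 5′ to 3′ on the gene's strand. Capitals mark matches to any of 5 motifs searched on both strands: the E-boxes CACGTG and CATGTG, which factors such as MITF bind, the AP-1 motif TGANTCA, the GC box GGGCGG of SP1 factors, and the TATA motif TATAAA.
SEMA3G, chr3:52445054-52445353, minus strand: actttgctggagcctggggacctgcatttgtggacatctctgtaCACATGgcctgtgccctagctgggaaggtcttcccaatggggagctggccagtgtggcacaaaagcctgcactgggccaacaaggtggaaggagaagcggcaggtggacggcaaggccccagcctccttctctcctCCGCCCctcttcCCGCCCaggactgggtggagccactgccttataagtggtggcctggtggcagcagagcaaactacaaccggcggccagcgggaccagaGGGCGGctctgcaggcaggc
NRP2, chr2:205682251-205682550, plus strand: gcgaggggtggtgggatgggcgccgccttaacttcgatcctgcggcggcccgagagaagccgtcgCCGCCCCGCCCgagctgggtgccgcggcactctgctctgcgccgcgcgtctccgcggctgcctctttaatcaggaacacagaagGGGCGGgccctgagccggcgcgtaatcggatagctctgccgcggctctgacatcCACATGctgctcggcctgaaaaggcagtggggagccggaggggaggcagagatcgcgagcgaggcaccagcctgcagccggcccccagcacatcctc
Both windows hold CATGTG once, read as CACATG on the strand shown, and GGGCGG or its reverse complement CCGCCC 3 times, 2 of the NRP2 matches overlapping by 1 base. CATGTG is found in 11.1% and GGGCGG in 45.0% of all 35116 promoter windows of this length, and the matches are given only as a description. The other 3 motifs are in neither window, and over all windows they are found in 7.26% (CACGTG), 7.71% (TGANTCA) and 11.5% (TATAAA). The windows differ in CpG dinucleotides, the sites of DNA methylation, with 8 for SEMA3G and 33 for NRP2, beside a median of 14 over all windows. Of the 70 members, 59 matched a symbol in the RefSeq promoter table.

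The other class 3 semaphorins changed by less. SEMA3B, which has been described as a growth suppressor and was by far the most abundant of them per length, stood at 204, 209.6 and 214 CPM in control and 224, 223 and 226 CPM in POLK sgRNA libraries. These groups did not overlap, but the log2 fold change was only 0.10 (SE 0.02, adjusted p = 4.3e-04). SEMA3E, a ligand of plexin D1 that needs no neuropilin, was at 3.24, 3.41 and 4.71 CPM in control libraries and at 5.67, 4.85 and 4.88 CPM with the POLK sgRNA. Control library 3 was close to the POLK sgRNA values, and the log2 fold change was 0.44 (SE 0.12, adjusted p = 0.002). SEMA3F, another NRP2 ligand, went down, from 6.75, 6.94 and 6.16 CPM to 5.53, 5.64 and 4.94 CPM, with no overlap, a log2 fold change of −0.30 (SE 0.08) and an adjusted p of 0.0015. Per length, the level of SEMA3G went from 1.83 ± 0.0708 to 5.95 ± 0.190 CPM per kilobase and that of SEMA3F went from 1.37 ± 0.0837 to 1.11 ± 0.0782. SEMA3A, the classical repellent of sensory axons, and SEMA3C had log2 fold changes of −0.22 and 0.24. SEMA3D had 7.98, 7.60 and 6.89 CPM and 6.60, 7.18 and 6.49 CPM, with overlapping groups and an adjusted p of 0.081. It passed on leaving out control library 3, at 0.026, or POLK sgRNA library 2, at 0.049. SEMA3A, SEMA3C, SEMA3D and SEMA3E all lie on chromosome 7, and the medians of their neighbouring genes lay between 0.04 and 0.07 on the log2 scale.

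Of the other semaphorins, which are bound to the membrane, 5 of 12 tested genes rose and 4 fell. These shares, 41.7% and 33.3%, stood beside 32.8% and 31.6% of all genes. SEMA6B (ENSG00000167680, chromosome 19), a transmembrane ligand of class A plexins and the most abundant gene of this group per length, stood at 99.9, 98.5 and 96.9 CPM in control and at 137, 146 and 155 CPM with the POLK sgRNA. The POLK sgRNA libraries differed among themselves more than the control libraries did, yet all of them lay above the controls, with a log2 fold change of 0.57 (SE 0.04, adjusted p = 9.9e-11). Its relative SEMA6A (ENSG00000092421, chromosome 5), which binds the same plexins, went the other way. The SEMA6A values were 10.9, 10.7 and 10.8 CPM and 6.04, 5.51 and 6.10 CPM, a fall to 54.4% of control with no overlap (log2 fold change −0.88, SE 0.07, adjusted p = 2.8e-13).

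SEMA4G rose from 7.56, 7.11 and 7.45 CPM to 10.9, 11.03 and 11.3 CPM, with a log2 fold change of 0.59 (SE 0.06, adjusted p = 1.0e-09). It shares 1170 exon bases (22.3% of its exon length) with MRPL43 on the other strand, which also rose, from 51.0 ± 2.42 to 58.8 ± 0.618 CPM. The library kit does not mark strand, so reads from the shared stretch cannot be assigned and the SEMA4G value is uncertain. SEMA4B, SEMA4C and SEMA4D, transmembrane ligands of class B plexins, rose by log2 fold changes of 0.31, 0.20 and 0.23. SEMA4C did so although its neighbours on chromosome 2 were lower, with a median of −0.27. SEMA7A, a GPI-anchored semaphorin that binds plexin C1 and integrins, did not pass, at 61.7, 58.2 and 60.01 CPM and 58.7, 62.5 and 61.9 CPM. Its groups overlapped, and the log2 fold change was 0.03 (SE 0.03, adjusted p = 0.51). The largest falls were in scarce genes. SEMA4A had 50 counts over the control libraries and 8 over the POLK sgRNA libraries (log2 fold change −2.66, SE 0.49, adjusted p = 1.4e-05), and SEMA6D had 182 and 71 (−1.42, SE 0.21, adjusted p = 3.2e-07). SEMA6C fell by less, from 5.70, 5.77 and 5.93 CPM to 4.55, 4.92 and 4.72 CPM (−0.30, SE 0.08, adjusted p = 0.0018).

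Plexins, the signal-carrying receptors of the semaphorins, were lower in 5 and higher in 2 of 8 tested genes. These shares, 62.5% and 25%, stood beside 31.6% and 32.8% of all genes. PLXNB2 (ENSG00000196576, chromosome 22), a receptor of class 4 semaphorins and the most abundant plexin per length, stood at 207, 207 and 205 CPM in control and 163, 173 and 173 CPM in POLK sgRNA libraries. The 3 control values were nearly equal and all above the POLK sgRNA values, with a log2 fold change of −0.28 (SE 0.02, adjusted p = 9.5e-12). PLXNA2 (ENSG00000076356, chromosome 1), a receptor for SEMA6A and for class 3 semaphorins with neuropilins, fell furthest. It had 7.03, 6.57 and 7.996 CPM and 3.36, 2.89 and 3.69 CPM, so that the highest POLK sgRNA library was at 3.69 CPM and the lowest control library at 6.57 CPM (log2 fold change −1.11, SE 0.09, adjusted p = 4.2e-12). PLXNA1 and PLXNA3, other class A plexins, fell by 0.24 and 0.27 on the log2 scale. Both were more abundant per length in control cells, at 10.9 and 2.16 CPM per kilobase, beside 0.522 for PLXNA2.

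PLXNC1 (ENSG00000136040, chromosome 12), the receptor of SEMA7A, rose from 1.03, 1.21 and 0.833 CPM to 1.77, 2.54 and 1.80 CPM (log2 fold change 0.97, SE 0.17, adjusted p = 1.0e-05). The gene remained scarce, and its 50 neighbours were all higher, with a median log2 fold change of 0.61. Chromosome 12 was higher as a whole, with a median of 0.50 over 738 tested genes, of which 77.4% rose and 9.76% fell. PLXNB3 rose by 0.22 on the log2 scale and shares 20.4% of its exon length with SRPK3 on the same strand, which fell from 1.80 ± 0.216 to 1.17 ± 0.217 CPM. PLXNB1, the receptor of SEMA4D, had a log2 fold change of −0.12 (adjusted p = 0.0058), and this call was lost without POLK sgRNA library 1 (log2 fold change −0.08, adjusted p = 0.074). PLXND1, the SEMA3E receptor, had overlapping groups, at 79.3, 76.1 and 75.1 CPM and 71.6, 74.8 and 75.1 CPM (log2 fold change −0.06, SE 0.03, adjusted p = 0.094, or 0.039 without control library 3).

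**Figure D3:**
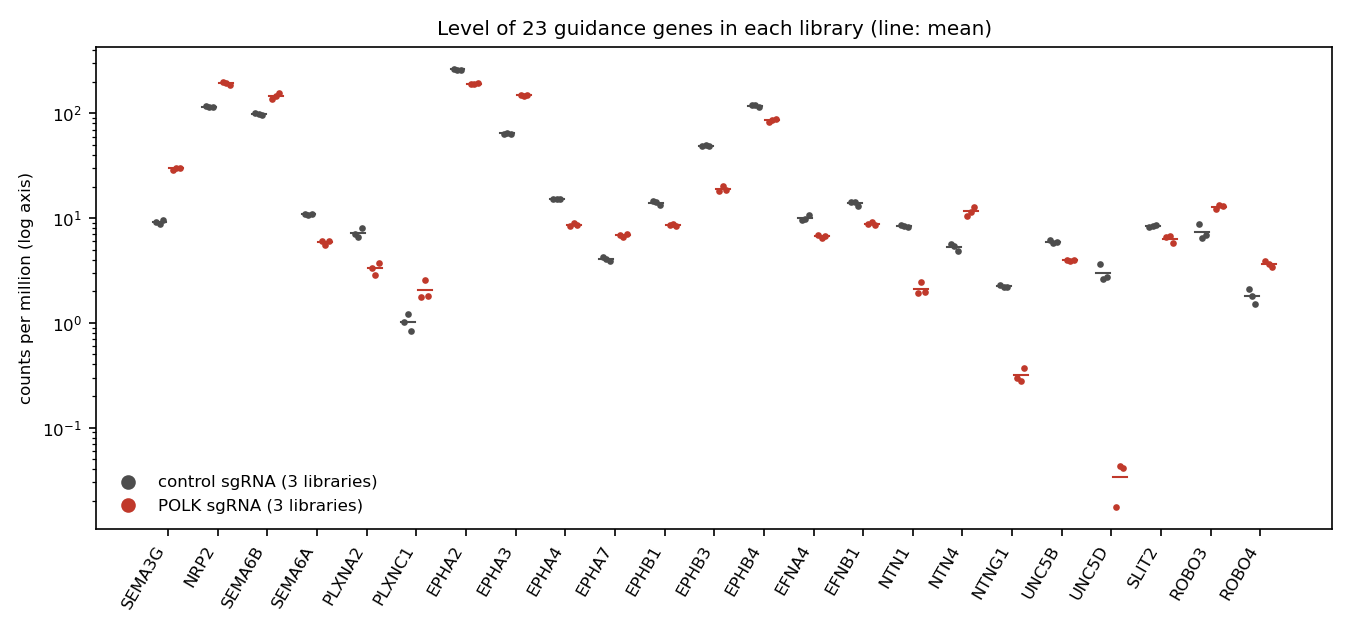
CPM (log axis) of 23 guidance genes in each of the 3 control libraries (grey) and 3 POLK sgRNA libraries (red), with a line at each group's mean. Points of a group lie close together beside the distance between groups for SEMA3G, NRP2, EPHA3, EPHB3 and NTN1, and UNC5D drops from about 2.99 to 0.0337 CPM.

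EphA receptors moved in both directions, and their make-up shifted from EPHA2 towards EPHA3. EPHA3 (ENSG00000044524, chromosome 3, 89107524 to 89482134 on the plus strand), a receptor of ephrin-A5, stood at 63.2, 65.3 and 64.1 CPM in control and at 149, 145 and 150.2 CPM with the POLK sgRNA. Every POLK sgRNA library held over 2 times the level of any control library, with a fold of 2.30 and a log2 fold change of 1.20 (SE 0.03, adjusted p = 6.9e-28). EPHA2 (ENSG00000142627, chromosome 1, 16124337 to 16156087 on the minus strand), the receptor best known for binding ephrin-A1, stood at 265, 259 and 262 CPM and 192, 189 and 195 CPM. It was lower in every POLK sgRNA library, at 73.3% of control (log2 fold change −0.45, SE 0.02, adjusted p = 5.4e-18). Per length, EPHA2 made up 83.5% ± 0.307 of the EphA genes in control cells and 65.4% ± 0.0951 with the POLK sgRNA (SD, n = 3), while EPHA3 went from 12.8% ± 0.321 to 31.4% ± 0.152.

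EPHA4 (ENSG00000116106, chromosome 2), which binds ephrins of both classes, fell from 15.3, 15.1 and 15.3 CPM to 8.33, 8.93 and 8.57 CPM. The 3 libraries of each group lay within 1 CPM of each other, and the log2 fold change was −0.82 (SE 0.06, adjusted p = 1.9e-14) against neighbours with a median of 0.12. EPHA7 (ENSG00000135333, chromosome 6), better known from the developing brain, rose from 4.27, 4.08 and 3.89 CPM to 6.86, 6.60 and 7.04 CPM, again with no overlap (log2 fold change 0.75, SE 0.08, adjusted p = 9.6e-10). EPHA5 and EPHA6 were scarce and their calls fragile. EPHA5 had 26 counts in control and 54 in POLK sgRNA libraries (log2 fold change 0.97, adjusted p = 0.019), and its call was lost without control library 1 (adjusted p = 0.081) or 2 (0.088) or POLK sgRNA library 1 (0.081). EPHA6 had 171 and 133 counts (log2 fold change −0.44, adjusted p = 0.032), and lost the call without control library 1 (adjusted p = 0.071) or 3 (0.082) or POLK sgRNA library 2 (0.06) or 3 (0.089). EPHA1, at 46 and 34 counts, did not pass.

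Of the 5 EphB receptors, 3 fell and none rose, where 31.6% of all genes fell and 32.8% rose. EPHB3 (ENSG00000182580, chromosome 3, 184561784 to 184582409 on the plus strand), a kinase receptor for B-class ephrins, fell from 48.4, 49.7 and 49.1 CPM to 18.2, 20.1 and 18.5 CPM. Every POLK sgRNA library lay far below every control library, with a mean of 38.5% of control and a log2 fold change of −1.38 (SE 0.04, adjusted p = 8.8e-25). Most of the surrounding region was lower as well. Of the 50 nearest tested genes, 45 fell and 2 rose, with a median of −0.43. EPHB4 (ENSG00000196411, chromosome 7), the receptor of ephrin-B2 and the most abundant EphB gene per length, stood at 119.7, 120.2 and 116 CPM and 83.1, 87.0 and 88.5 CPM. It fell with no overlap to 72.7% of control (log2 fold change −0.46, SE 0.03, adjusted p = 4.7e-16). EPHB1 (ENSG00000154928, chromosome 3) fell from 14.4, 14.3 and 13.2 CPM to 8.59, 8.72 and 8.37 CPM (log2 fold change −0.71, SE 0.06, adjusted p = 2.7e-12). EPHB2 differed from these 3 in showing no detectable change, at 37.7, 38.4 and 38.7 CPM and 39.3, 38.1 and 38.5 CPM, with a log2 fold change of 0.01 (SE 0.04, adjusted p = 0.74) that changed sign on leaving out control library 1. EPHB6, which lacks kinase activity, had 75 and 52 counts and did not pass (adjusted p = 0.055, or 0.034 without control library 1).

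The promoters of EPHA3 and EPHB3 are shown as the Eph receptor genes with the largest rise and the largest fall above 1 CPM, in the same format and with the same 5 motifs in capitals.
EPHA3, chr3:89107371-89107670, plus strand: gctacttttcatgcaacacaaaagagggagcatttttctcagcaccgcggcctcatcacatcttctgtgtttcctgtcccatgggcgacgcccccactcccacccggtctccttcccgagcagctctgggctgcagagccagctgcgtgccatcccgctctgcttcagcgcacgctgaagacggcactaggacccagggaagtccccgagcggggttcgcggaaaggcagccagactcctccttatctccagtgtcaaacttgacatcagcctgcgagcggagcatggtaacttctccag
EPHB3, chr3:184561535-184561834, plus strand: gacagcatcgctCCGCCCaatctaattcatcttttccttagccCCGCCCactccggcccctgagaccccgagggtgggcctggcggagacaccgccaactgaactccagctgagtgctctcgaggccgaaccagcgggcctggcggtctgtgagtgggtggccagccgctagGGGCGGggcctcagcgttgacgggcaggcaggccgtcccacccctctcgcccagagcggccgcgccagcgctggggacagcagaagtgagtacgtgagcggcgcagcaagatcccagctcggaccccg
The EPHB3 window holds the GC box 3 times and these letters are not in the EPHA3 window, nor are those of the other 4 motifs. GGGCGG is found in 73.1% of the 93 windows of members, beside 45.0% of all windows. The EPHB3 and EPHA3 windows hold 26 and 17 CpG dinucleotides and 69.0% and 59.7% G and C. The median CpG count was 21 over the windows of members and 14 over all windows.

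Ephrins, the ligands of the Eph receptors, were lower in 7 of 8 genes, and none rose, where 31.6% of all genes fell. Among the GPI-anchored ephrin-A genes, EFNA5 (ENSG00000184349, chromosome 5), a ligand of EPHA3 among others, stood at 19.8, 21.0 and 19.8 CPM and 14.7, 15.5 and 14.8 CPM. The groups did not overlap, and the log2 fold change was −0.44 (SE 0.05, adjusted p = 1.8e-09), opposite in direction to that of EPHA3. EFNA4 (ENSG00000243364, chromosome 1) fell from 9.5, 9.80 and 10.6 CPM to 6.93, 6.52 and 6.74 CPM (log2 fold change −0.56, SE 0.07, adjusted p = 9.3e-09). The adjoining EFNA3, at 2.50, 2.64 and 3.02 CPM and 1.75, 1.90 and 2.31 CPM, fell by 0.46 on the log2 scale (SE 0.13, adjusted p = 0.0022), with a narrow gap between the groups. EFNA3 and EFNA4 share 44.7% and 15% of their exon length with a joint gene model on the same strand, so reads could be split between them. EFNA1, the third gene of this cluster on chromosome 1 and the ligand best known for EPHA2, had overlapping groups, at 16.9, 15.4 and 16.4 CPM and 15.8, 17.9 and 16.8 CPM (log2 fold change 0.05, SE 0.05, adjusted p = 0.43). EFNA2 was scarce and fell from 129 to 25 counts (log2 fold change −2.42, SE 0.28, adjusted p = 3.5e-09).

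All 3 ephrin-B genes, which encode transmembrane ligands that can also signal into the cell that carries them, fell. EFNB1 (ENSG00000090776, X chromosome) had 14.3, 14.2 and 13.1 CPM in control and 8.68, 9.25 and 8.59 CPM in POLK sgRNA libraries, a log2 fold change of −0.65 (SE 0.06, adjusted p = 2.5e-11). EFNB3 (ENSG00000108947, chromosome 17) went from 14.1, 15.5 and 16.1 CPM to 10.0, 10.3 and 11.04 CPM, with −0.55 (SE 0.06, adjusted p = 9.8e-10). EFNB2 (ENSG00000125266, chromosome 13), the EPHB4 ligand and the most abundant ephrin-B gene per length, changed least, from 41.4, 42.8 and 42.7 CPM to 38.8, 35.5 and 36.6 CPM (−0.19, SE 0.04, adjusted p = 3.0e-05), and 26.2% of its exon length is shared with an antisense gene. In all 3 genes the highest POLK sgRNA library lay below the lowest control library.

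Netrins and their receptors held the largest falls among the tested members, with UNC5D and then NTNG1. NTN1 (ENSG00000065320, chromosome 17, 9021542 to 9244000 on the plus strand), the classical attractant and survival ligand, stood at 8.66, 8.31 and 8.18 CPM in control and 1.91, 2.44 and 1.96 CPM with the POLK sgRNA. All POLK sgRNA libraries lay far below the controls, with a mean of 25.1% of control and a log2 fold change of −2.003 (SE 0.09, adjusted p = 4.1e-19). NTNG1 (ENSG00000162631, chromosome 1, 107140007 to 107483458 on the plus strand), a GPI-anchored netrin of synapses, had 2.31, 2.18 and 2.21 CPM and 0.298, 0.278 and 0.367 CPM. It fell to 14.1% of control (log2 fold change −2.82, SE 0.19, adjusted p = 8.9e-15), and its relative NTNG2 fell by 0.74 (SE 0.17, adjusted p = 3.1e-04). NTN4 (ENSG00000074527, chromosome 12, 95657807 to 95791152 on the minus strand), a laminin-binding netrin of basement membranes, was the 1 netrin that rose, from 5.65, 5.46 and 4.85 CPM to 10.5, 11.5 and 12.7 CPM. Its log2 fold change was 1.12 (SE 0.08, adjusted p = 3.7e-14), and the 50 nearest tested genes had a median of 0.57, so NTN4 stood 0.55 above its neighbours on the log2 scale. Chromosome 12 was higher as a whole, with a median of 0.50. Per length, NTN1 and NTN4 took 39.8% and 38.7% of the netrin genes in control cells and 9.35% and 78.6% with the POLK sgRNA. NTN3, with 72 and 80 counts, did not pass, and its sign changed on leaving out 1 library.

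UNC5 genes encode repulsive netrin receptors that have also been described as triggers of cell death when no netrin is bound. UNC5D (ENSG00000156687, chromosome 8, 35235457 to 35796550 on the plus strand) was at 3.62, 2.62 and 2.73 CPM in the control libraries and at 0.0175, 0.0427 and 0.0408 CPM in the POLK sgRNA libraries, or 155, 143 and 131 counts against 1, 2 and 2. It was thus close to undetected in every POLK sgRNA library, with a log2 fold change of −6.39 (SE 0.31, adjusted p = 7.8e-19). UNC5B (ENSG00000107731, chromosome 10) fell from 6.19, 5.77 and 5.96 CPM to 3.94, 3.93 and 4.001 CPM, with no overlap and little spread (log2 fold change −0.59, SE 0.08, adjusted p = 2.2e-07). UNC5C had 76 and 80 counts, with overlapping groups. Of the netrin receptors outside the UNC5 family, NEO1, which encodes neogenin, a receptor of netrins and of repulsive guidance molecules, fell from 47.2, 45.9 and 47.1 CPM to 4.99, 5.92 and 5.35 CPM (log2 fold change −3.11, SE 0.05, adjusted p = 2.0e-31). RGMA, another neogenin ligand, fell from 4.55, 4.38 and 4.29 CPM to 1.19, 2.09 and 1.69 CPM (−1.43, SE 0.13, adjusted p = 1.2e-10). DCC had too few counts for a test, at 0.233, 0.165 and 0.416 CPM and 0.0350, 0 and 0.102 CPM.

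Both tested SLIT ligands fell and 3 of 4 ROBO receptors rose, where 31.6% of all genes fell and 32.8% rose. SLIT2 (ENSG00000145147, chromosome 4), which made up 95.8% of the SLIT genes per length in control cells, fell from 8.15, 8.44 and 8.58 CPM to 6.58, 6.69 and 5.797 CPM (log2 fold change −0.40, SE 0.07, adjusted p = 1.3e-05). SLIT1 had 42 and 15 counts (log2 fold change −1.53, SE 0.44, adjusted p = 0.0027). SLIT3 had 12 counts over the control libraries and 1 over the POLK sgRNA libraries, a ratio of 12.6 with an exact 95% interval of 1.87 to 539 that covers counting error only.

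ROBO1 (ENSG00000169855, chromosome 3), the main receptor by level per length, stood at 95.5, 98.4 and 101 CPM and 88.9, 89.8 and 87.3 CPM, a small fall without overlap (log2 fold change −0.15, SE 0.03, adjusted p = 2.3e-05). ROBO3 (ENSG00000154134), which modifies SLIT responses in commissural axons, rose from 8.78, 6.52 and 6.96 CPM to 12.2, 13.2 and 13.1 CPM (0.80, SE 0.08, adjusted p = 1.4e-08). ROBO4 (ENSG00000154133), a receptor of endothelium, rose from 2.10, 1.79 and 1.52 CPM to 3.87, 3.63 and 3.43 CPM (1.02, SE 0.12, adjusted p = 4.9e-09). It shares 10.6% of its exon length with the antisense gene AP003501.1 and 6.37% with the antisense gene AP003501.2. ROBO3 and ROBO4 lie side by side on opposite strands of chromosome 11, and the medians of their neighbours were 0.0045 and 0.0016. ROBO2 (ENSG00000185008, chromosome 3) rose from 1.82, 1.59 and 1.75 CPM to 2.82, 2.33 and 2.43 CPM (0.57, SE 0.13, adjusted p = 2.8e-04).

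Summed over its genes in CPM, each family is a description without a test, since a sum follows its most abundant and longest genes. The neuropilins stood at 149% ± 3.69 of control (SD propagated from both groups, n = 3 each), other semaphorins at 121% ± 4.57 and class 3 semaphorins at 113% ± 2.10. The UNC5 receptors stood at 47.4% ± 3.2, EphB receptors at 69.3% ± 1.51, SLIT genes at 73.7% ± 6.15, ephrin-B at 78.8% ± 2.33, ephrin-A at 81.3% ± 2.79 and plexins at 88.1% ± 2.26. In these 9 families the groups did not overlap. The other 3 families and the sum over all members changed sides when each gene was weighted per length. EphA receptors were at 103% ± 1.70 in CPM and 93.6% ± 1.63 per length, and the groups did not overlap in either unit, in opposite directions. Netrins were at 85.7% ± 7.28 in CPM, without overlap, and at 107% ± 9.31 per length, with overlap. ROBO receptors were at 98.7% ± 1.93 and 102% ± 1.81, with overlap in both units. The sum over all members was at 101% ± 1.14 in CPM, with overlap, and at 98.3% ± 1.53 per length, where every POLK sgRNA library lay below the controls.

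**Figure D4:**
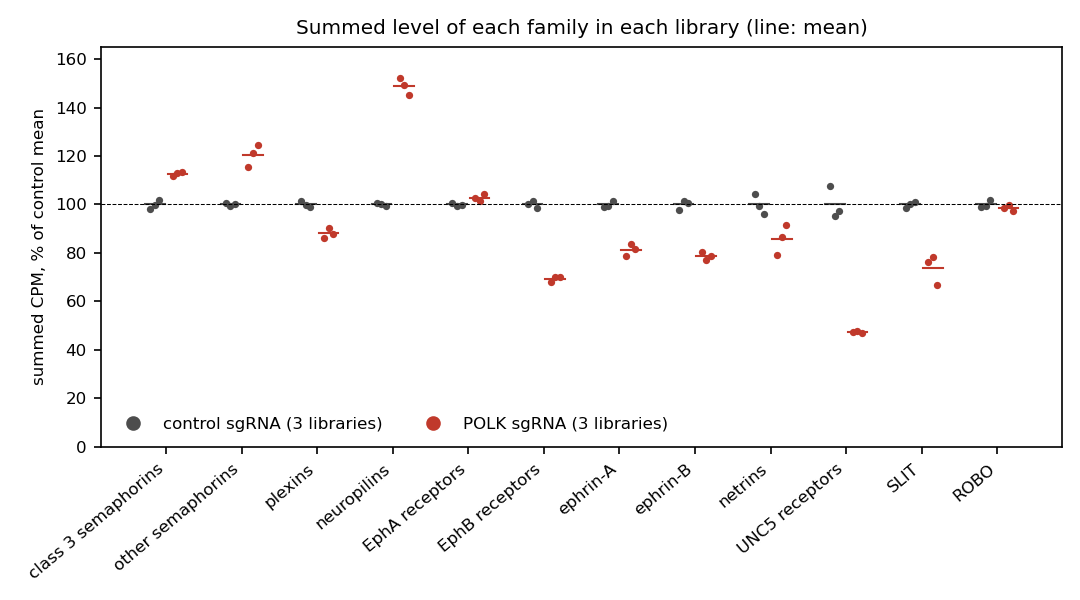
Summed CPM of each family in each library, as a percent of the control mean (y axis, from 0), for 3 control libraries (grey) and 3 POLK sgRNA libraries (red), with lines at the means. Neuropilins lie highest at 149% and UNC5 receptors lowest at 47.4%, and EphA and ROBO sums stay near the dashed line at 100%.

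Where chromosome regions moved as a whole, a member's change can be read against its neighbours. For each tested member the median log2 fold change of the 50 nearest tested genes was taken, leaving out genes under 1 CPM. It lay beyond 0.1 in either direction for 7 of the 63, namely SEMA4C (−0.27), SEMA4F (−0.12), PLXNC1 (0.61), EPHA4 (0.12), EPHB3 (−0.43), EFNB1 (0.12) and NTN4 (0.57). After subtraction of the neighbours' median, all 52 called members kept their sign. Of the 13 members changed at least 2-fold, 11 remained at least 2-fold apart from their neighbours, the exceptions being NTN4 at 0.55 and EPHB3 at −0.95. The large changes of SEMA3G, EPHA3, NTN1, NTNG1, UNC5D and ROBO4 all lay among neighbours with medians between −0.04 and 0.02.

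**Figure D5:**
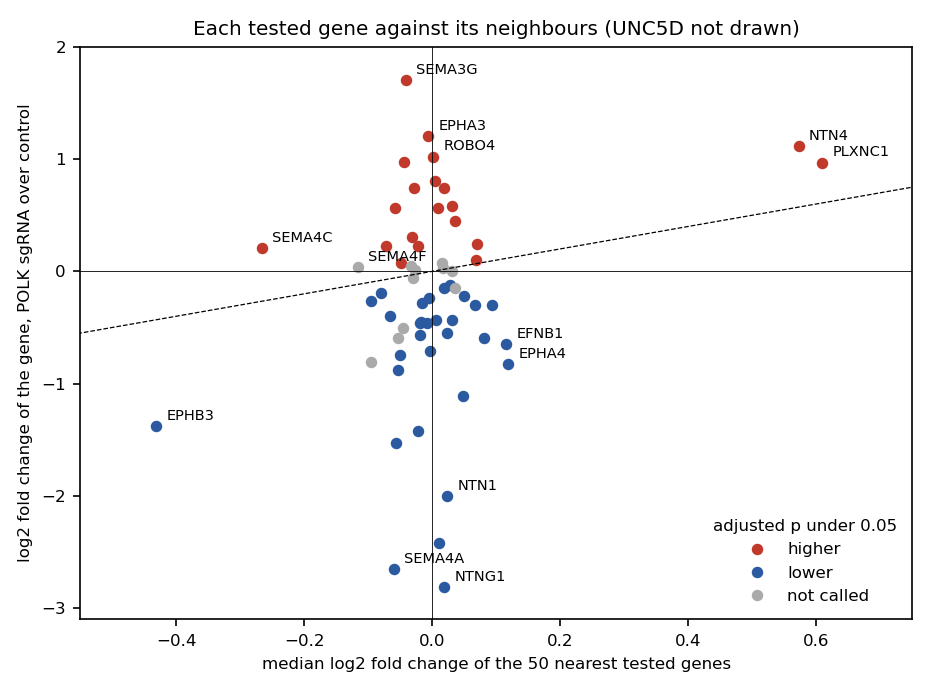
Log2 fold change of each tested gene except UNC5D (y axis) against the median log2 fold change of its 50 nearest tested genes (x axis), with a dashed line where both are equal; red marks genes that rose, blue genes that fell and grey genes that did not pass. Most genes stand in a column near 0 on the x axis, while PLXNC1 and NTN4 stand to the right and EPHB3 and SEMA4C to the left.

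Other genes of axon guidance signalling were lower more often than higher among those that passed. The list was taken from textbook knowledge but chosen with earlier results of these data known, so it is not independent support for the members' pattern. Of 86 listed genes in the table, 81 were tested, of which 21 rose (25.9%, beside 32.8% of all genes) and 38 fell (46.9%, beside 31.6%). Their median log2 fold change was −0.09, beside 0.01 over all genes. Cytoskeletal effectors fell in 10 of 14 and rose in 3. DPYSL2 (CRMP2), which relays semaphorin signals to microtubules, fell from 93.2, 95.6 and 91.8 CPM to 45.2, 38.3 and 43.7 CPM (chosen after its values were seen, log2 fold change −1.14, SE 0.05, adjusted p = 5.7e-11). MICAL2, an actin-oxidising enzyme, rose from 1.40 ± 0.158 to 3.42 ± 0.110 CPM (mean ± SD, n = 3; log2 fold change 1.29, SE 0.12, adjusted p = 5.8e-11). VAV3, an exchange factor that Eph receptors recruit, fell from 3.85, 3.39 and 4.04 CPM to 0.683, 0.513 and 0.572 CPM (−2.65, SE 0.15, adjusted p = 7.9e-17), and RND1, a GTPase that binds plexins, rose from 0.630, 0.714 and 0.770 CPM to 1.66, 1.43 and 1.55 CPM among neighbours with a median of 0.46 (1.13, SE 0.18, adjusted p = 1.0e-06).

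VEGF ligands and receptors, of which several bind neuropilins, rose in 5 of 6 tested genes and fell in none, where 32.8% of all genes rose. Among the 5, VEGFB passed narrowly, with overlapping groups (log2 fold change 0.13, adjusted p = 0.048). FLT1, a VEGF-A receptor, rose from 15.2, 16.5 and 15.3 CPM to 36.4, 33.4 and 34.4 CPM (1.15, SE 0.05, adjusted p = 4.5e-21). Of the kinases, phosphatases and adaptors 6 of 19 rose and 6 fell, shares near those of all genes, and of the genes for shedding and turnover 2 of 7 rose and 3 fell. Adhesion and kinase co-receptors fell in 3 of 5, and the other cues and receptors, NEO1 and RGMA among them, in 4 of 6, with 1 higher. Over all genes tested, 31.6% fell.

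The 7 members too scarce to test were SEMA5B (2 control and 3 POLK sgRNA counts), PLXNA4 (16 and 5), EPHA8 (8 and 1), the kinase-inactive EPHA10 (1 and 2), NTN5 (12 and 6), UNC5A (7 and 0) and SLIT3. EPHA8 had a ratio of 8.41 (exact 95% interval 1.13 to 373), and 6 of the 7 UNC5A counts were in control library 2, with 0 in control library 3. SEMA5A, with 37 and 22 counts, was tested and did not pass (adjusted p = 0.075; 0.036 without POLK sgRNA library 2), nor did SEMA4F (20.7, 20.5 and 20.9 CPM and 21.5, 20.7 and 21.4 CPM, adjusted p = 0.49).

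The label of melanoma was checked against 10 melanocyte lineage markers. SOX10, the neural crest and melanocyte factor, was abundant, at 1060.1 CPM in control and 1155 CPM with the POLK sgRNA, and MITF, PAX3, S100A1 and S100B were each above 10 CPM. The pigment genes PMEL, MLANA, TYR, TYRP1 and DCT were all under 1 CPM, with TYR at 0 in the POLK sgRNA libraries. The summed list lay at 1180 to 1204 CPM in control and 1320.3 to 1380.5 CPM in POLK sgRNA libraries, with 6 of 9 tested markers higher and 1 lower. Over all genes tested, 32.8% were higher and 31.6% lower.

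Markers of other cell types that use these cues were summed in the same way. Their counts of calls stand beside 32.8% higher and 31.6% lower over all genes tested. The neuron list lay at 84.9 to 89.5 CPM in control and 103 to 107 CPM in POLK sgRNA libraries. Of its 8 tested markers, 4 were higher and 3 lower. By control and POLK sgRNA mean, NEFL (63.0 and 75.6 CPM), SYT1 (7.75 and 15.3), NEFM (1.73 and 3.85) and SNAP25 (1.80 and 2.73) were higher. TUBB3 (6.94 and 4.72 CPM), SYP (3.57 and 2.32) and STMN2 (1.42 and 0.257) were lower. NEFL was the largest part of the sum, and RBFOX3, ELAVL3 and ELAVL4 were under 0.4 CPM. The endothelium list lay at 3.61 to 4.48 CPM in control and 6.55 to 6.95 CPM in POLK sgRNA libraries. Of its 7 tested markers, 5 were higher and 2 lower. By control and POLK sgRNA mean, KDR (1.64 and 3.11 CPM), VWF (1.13 and 1.67), PECAM1 (0.386 and 0.930), TIE1 (0.101 and 0.495) and TEK (0.102 and 0.278) were higher. CDH5 (0.361 and 0.0343 CPM) and CLDN5 (0.412 and 0.199) were lower. ERG was not tested, being under 0.02 CPM in both groups and at 0 with the POLK sgRNA. The fibroblast list lay at 20.1 to 20.6 CPM in control and 29.6 to 29.8 CPM in POLK sgRNA libraries (3 of 6 higher, 2 lower), the leukocyte list at 17.7 to 18.0 CPM in control and 58.1 to 60.3 CPM in POLK sgRNA libraries (2 of 3 higher, 1 lower), almost all CD68 and LYZ with PTPRC under 0.04 CPM, and the keratinocyte and epithelium list at 82.7 to 86.8 CPM in control and 100.2 to 105 CPM in POLK sgRNA libraries (2 of 4 higher, none lower), mainly KRT10. No marker in the table was at 0 in all 6 libraries. These sums moved with the groups, and their part in the members' changes was not tested.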

How the data were processed

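RNA from 6 libraries of A375 cells was analysed, 3 per group. The authors deposited raw read counts per gene in 1 table. FastQC, Trimmomatic, STAR, DESeq2 and GRCh38 are named, without versions, in the submitters' processing notes; how reads were counted, and with which strand setting, was not given in any source used here, and the TruSeq RNA V2 kit of the labels does not mark strand. Of the genes in the table, 210 rows had no symbol.

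The members and lists were chosen with earlier results of these data known. Counts were tested with edgeR 4.0.16 (R 4.3.3; TMM scaling, filterByExpr with a minimum count of 10 and total of 15, robust quasi-likelihood F test, Benjamini-Hochberg adjustment over 13930 genes, threshold 0.05), and the SE is the log2 fold change divided by the square root of F. DESeq2 1.42.0 and limma 3.58.1 served as alternatives. A gene "rose" or "fell" only where it passed. Gene positions and exon lengths came from GENCODE 29. Sequencing depth was 42852645 to 56891905 counts per library. On data simulated with the same spread for every gene and 200 changed genes, 4 of 13730 unchanged genes were called. That rate need not hold for the real counts. Libraries of a group differed by more than counting noise (chi-square divided by its degrees of freedom, 1.98 to 4.02), so none was counted as a duplicate.

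Named in full were, per family, the gene with the highest mean CPM and up to 3 called genes with the largest change and a mean of at least 1 CPM, and any gene with counts in all libraries of 1 group and under 3 counts in the other; in the signalling list, up to 3 per direction. Other members are named because every member is accounted for, or were chosen after their values were seen. Of 87 listed signalling genes, 86 were in the table. The results of 1 marker list and 1 group of the signalling list are not reported here.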

Additional observations from a re-analysis of the deposited data

How the results depend on the processing

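The counts of members called kept their size under scaling by DESeq2's size factors or by library size alone, without a filter on low counts, with a minimum mean of 1 CPM, in DESeq2's Wald test and in limma-voom, at 18 to 20 higher and 28 to 34 lower. They were 11 higher and 20 lower in the test for a change beyond 25%. Leaving out 1 library at a time gave 18 to 20 members higher and 31 to 33 lower, 17 to 19 genes of the signalling list higher and 36 to 39 lower, and a POLK log2 fold change of −0.40 to −0.32. Replicate numbers did not pair the libraries, since the deviations of same-numbered libraries correlated at −0.036, −0.0068 and −0.042 over 12344 genes. With the replicate number as a block, 19 members were higher and 32 lower, the signalling list had 20 and 38, the log2 fold change of POLK was −0.36 and NRP1 lost its call (adjusted p = 0.067). NRP1 also lost it with DESeq2's size factors (0.074), with the minimum mean of 1 CPM (0.057) and in DESeq2 (0.15), where EPHA5 (0.089) and EPHA6 (0.11) lost theirs. SEMA5A passed in limma-voom (adjusted p = 0.038). Small values changed sign in EPHB2 without control library 1 (−0.00116), in NTN3 without control library 3 (−0.089) or POLK sgRNA library 1 (−0.042), and in UNC5C with DESeq2's size factors (−0.00357) and without control library 1 (−0.12), POLK sgRNA library 1 (−0.057) or 2 (−0.064). Leaving out 1 library at a time, their log2 fold changes ranged from −0.00116 to 0.025 (EPHB2), from −0.089 to 0.19 (NTN3) and from −0.12 to 0.12 (UNC5C). Weighted per length, family sums changed sides for EphA receptors (93.6% of control), netrins (107%), ROBO receptors (102%) and the sum over all members (98.3%) and moved for EphB receptors (63.8%), ephrin-A (78.3%) and UNC5 receptors (52.2%). Those sums differ by construction, since short genes then count for more. Depth limited the 10 tested members under 1 CPM and the 7 not tested. In simulated counts, the test recovered 32% of genes changed 1.1-fold and 90% of those changed 1.5-fold. The simulation gave every gene the same spread beyond counting noise (2.42%) and changed only 200 genes. Its rates therefore do not measure recovery in these data, where the spread differs by gene and 64.3% of genes passed.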
